A study of Mus musculus with 4 samples.

Results

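Amino acid transporters of 7 solute carrier families were compared between mouse epiblast-like tissue at day 3 (2 samples) and the mouse embryonic stem cells it was grown from, at day 0 (2 samples). The day 3 tissue had grown for 3 days in SFEBq, a serum-free method in which stem cells quickly form floating aggregates, and the day 0 cells were the stem cells before that culture. No strain, cell line, genotype or agent is named in the labels, all samples carry the same cell type label, and the numbering 1 and 2 does not say whether the samples came from separate cultures, so p-values measure a spread between samples that may be technical only. RNA of each sample was read on 1 Affymetrix array, and the number of arrays limits the precision. The members were the genes whose symbol belongs to families Slc1, Slc3, Slc6, Slc7, Slc36, Slc38 or Slc43 and ends in a number, with Slc38a4 left out. This gave 57 of the 18194 genes on the arrays with a symbol of their own: 7 in Slc1, 2 in Slc3, 18 in Slc6, 15 in Slc7, 4 in Slc36, 8 in Slc38 and 3 in Slc43. Values are log2 signals after RMA, a method that makes the arrays' distributions alike, of the probe set with the highest mean over the 4 arrays, so a signal is compared between days within a gene and not between genes.

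Solute carriers move amino acids across the plasma membrane and the membrane of lysosomes, some by exchange and others with sodium or protons. Family 7 holds cationic amino acid carriers and light chains, which reach the cell surface only when bound to a heavy chain, Slc3a2 (4F2hc, also known as CD98) or Slc3a1 (rBAT). Family 38 carries small neutral amino acids and glutamine with sodium, and family 1 carries glutamate and aspartate or exchanges neutral amino acids. Family 36 includes carriers that work with protons. Family 6 also holds carriers of neurotransmitters, taurine and creatine, so not every member transports an amino acid. Mouse embryonic stem cells are known for their dependence on threonine, and proline taken up through Slc38a2 has been described as a signal for their passage to primitive ectoderm-like cells.

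The days were told apart by markers. Of 7 markers of embryonic stem cells, 6 were called lower and 0 higher at day 3, and their mean log2 signal was 10.10 and 10.002 in the day 3 arrays against 12.34 and 12.35 in the day 0 arrays. All 4 epiblast markers were called higher, at 12.36 and 12.24 against 8.63 and 8.55, with Fgf5 below the first quartile of the array at day 0. Markers of another tissue moved with the days as well: 11 of 12 genes of visceral endoderm, an extra-embryonic layer, were called higher, with a mean of 9.82 and 9.91 at day 3 against 6.94 and 6.89 at day 0, and 0 of them lay below the first quartile in both arrays of a day. Trophectoderm markers were at 8.42 and 8.45 against 6.95 and 6.72, with 4 of 6 called higher (Krt8, Krt18, Eomes and Plac1). The 1 called lower was Cdx2 (-0.61 ± 0.13), and Elf5 lay below the first quartile on all 4 arrays. Fibroblast markers were at 6.47 and 6.43 against 6.65 and 6.63, but these means average large differences in opposite directions. Of the 7, 3 were called higher, Thy1 (1.82), Dcn (0.96) and Col1a2 (0.49). Vim (-3.42) and Acta2 (-1.18) were the 2 called lower, and Lum lay below the quartile throughout. Neural markers were at 6.21 and 6.34 against 7.24 and 7.16, with 1 of 4 higher and 2 lower and Sox1 below the quartile at day 3. Whether cells of these other types were present was not tested, nor was their part in the differences of the transporters. In such samples fewer cells of a type and less RNA per cell cannot be told apart. Duplicates of the 57 genes differed by at most 0.40 at day 3 and 0.69 at day 0 on the log2 scale.

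More transporter genes were higher than lower at day 3. With limma and a Benjamini-Hochberg adjusted p under 0.05 over all 18194 genes, 25 of the 57 were called higher, 8 lower and 24 were not called. Over all genes 42.3% were called, 20.9% higher and 21.4% lower, against 57.9%, 43.9% and 14% of the transporters. The median log2 difference, day 3 minus day 0, was 0.19 over the transporters and 0.01 over all genes. Brighter genes were called more often, with 62.8% of genes above the median level and 21.9% of those at or below it, against 17 of 24 and 16 of 33 transporters (70.8% and 48.5%). Day 3 arrays were both above or both below the day 0 arrays in 45 of the 57 (78.9%) and in 69% of all genes. Most differences were small. At least 2-fold rises were called for 4 transporters (Slc7a9, Slc7a8, Slc38a6 and Slc1a4) and at least 2-fold falls for 3 (Slc6a16, Slc1a1 and Slc7a2), against 5.93% and 4.25% of all genes. Without day 3 replicate 1, 16 were called higher and 4 lower, and without day 3 replicate 2, 17 and 6. No detection calls were used. Signals under the arrays' first quartile of 4.30 to 4.33 were not separated from background, and 5 transporters (Slc3a1, Slc6a14, Slc7a11, Slc7a12 and Slc7a14) lay there on all 4 arrays with the probe set kept.

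**Figure D1:**
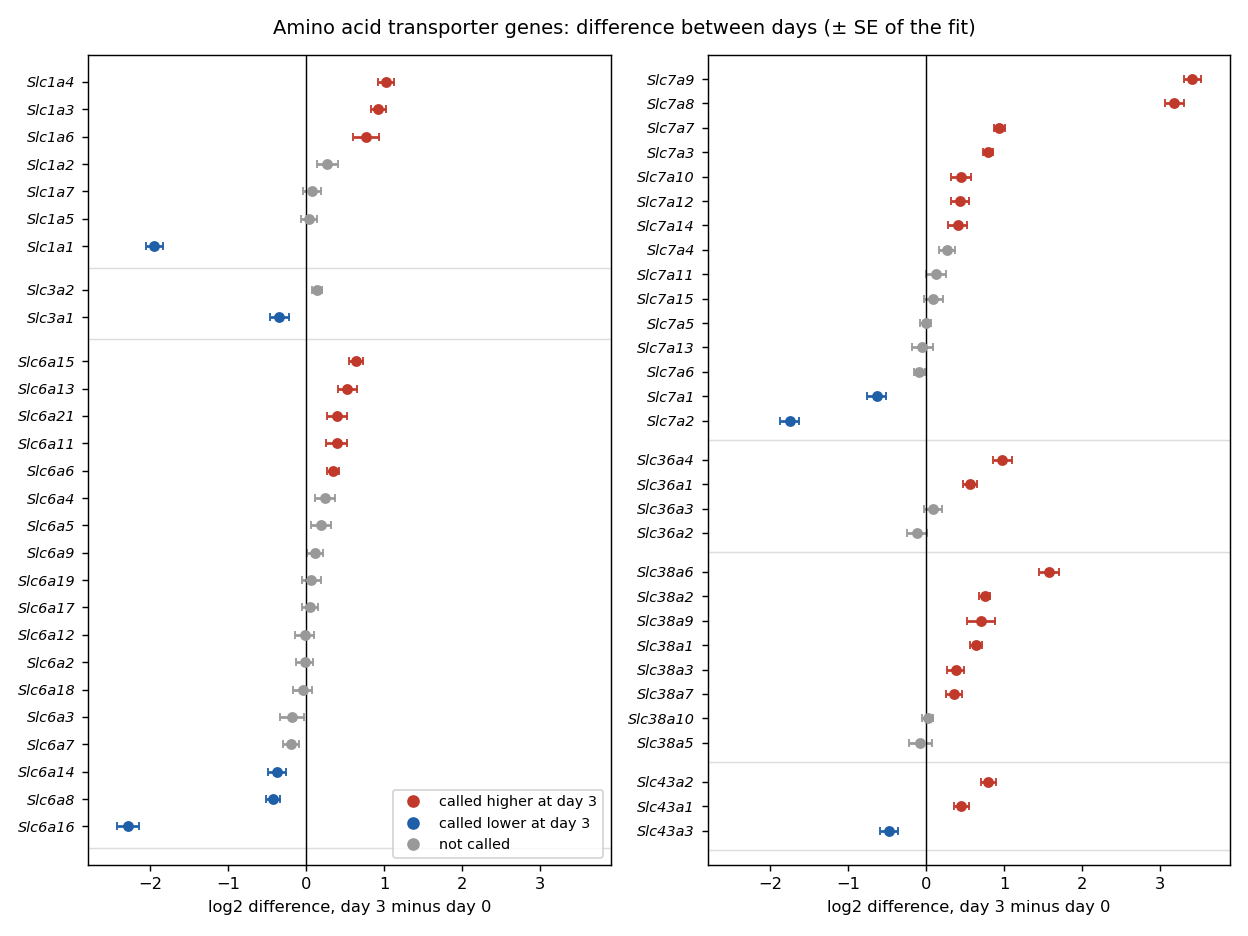
Log2 difference, day 3 minus day 0, of each of the 57 transporter genes, grouped by family from top to bottom in each panel; bars are the standard error of the limma fit. Points are red for 25 genes called higher, blue for 8 called lower and grey for 24 not called; Slc7a9 and Slc7a8 stand furthest to the right and Slc6a16 furthest to the left.

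The light chains of family 7 held the 2 largest rises. Slc7a9, known as b0,+AT, exchanges cystine and cationic amino acids for neutral ones and is best known from the kidney and intestine, where its loss causes cystinuria. It had 8.14 and 8.24 at day 3, against 4.78 and 4.79 at day 0. The groups lay far apart and the duplicates close together, and it rose by 3.41 ± 0.11 (SE), about 10.6-fold, with an adjusted p of 3.7e-09. Slc7a8, known as LAT2, exchanges neutral amino acids. It had 7.67 and 7.79 at day 3, against 4.47 and 4.63 at day 0. Both day 3 arrays were high and both day 0 arrays were near the first quartile, and it rose by 3.18 ± 0.12, about 9.06-fold (adjusted p = 1.0e-08). Since the day 0 signals of both genes were close to background, these folds may understate the change. With 1 array left out, the rise ranged from 3.36 to 3.46 for Slc7a9 and from 3.10 to 3.26 for Slc7a8. The visceral endoderm markers had a median difference of 2.85 between these same samples, and their part in both rises was not tested.

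The stretches around the starts of these 2 genes are shown because they carry the largest differences. They run from 250 bases before to 50 after the start, as listed by RefSeq for GRCm38.p6, where 40 of the 57 genes were matched by symbol. That of Slc7a9, the first of 2 listed starts, is at chr7:35448842-35449141 on the plus strand and that of Slc7a8 at chr14:54781837-54782136 on the minus strand. Capitals mark AGATAA, a motif bound by GATA factors, on either strand; it was searched after the sequence had been read. It was found in 11.4% of 27018 promoters of this length and in 2 of the 40 transporter promoters, those of Slc7a9 (2 matches) and Slc3a1 (1 match). Slc7a9 had 6 CG dinucleotides and Slc7a8 had 20, where the median was 7 over all promoters and 15 over the transporters.
Slc7a9: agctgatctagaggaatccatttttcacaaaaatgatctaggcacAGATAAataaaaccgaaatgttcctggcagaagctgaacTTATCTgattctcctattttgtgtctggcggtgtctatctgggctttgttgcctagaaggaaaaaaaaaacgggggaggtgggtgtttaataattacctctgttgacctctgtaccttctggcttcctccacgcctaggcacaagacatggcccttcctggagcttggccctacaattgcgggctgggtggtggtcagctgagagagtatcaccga
Slc7a8: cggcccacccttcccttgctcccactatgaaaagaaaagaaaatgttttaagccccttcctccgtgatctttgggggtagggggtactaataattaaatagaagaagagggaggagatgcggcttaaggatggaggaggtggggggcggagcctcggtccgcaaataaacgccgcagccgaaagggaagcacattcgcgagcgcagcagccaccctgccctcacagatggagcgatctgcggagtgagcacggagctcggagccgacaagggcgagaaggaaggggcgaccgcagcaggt

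Neither heavy chain was called higher. Slc3a1, the partner of Slc7a9, had 3.92 and 4.005 at day 3, against 4.30 and 4.32 at day 0. It was called lower by 0.35 ± 0.12 (adjusted p = 0.039), but all 4 signals lay below the first quartile, and the call was lost with any array left out (adjusted p = 0.086 to 0.17). Slc3a2, the partner of Slc7a5, Slc7a6, Slc7a7, Slc7a8, Slc7a10 and Slc7a11, had 11.43 and 11.56 at day 3, against 11.32 and 11.41 at day 0. Both day 3 arrays were above both day 0 arrays, but the difference of 0.13 ± 0.07 was not called (adjusted p = 0.14).

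**Figure D2:**
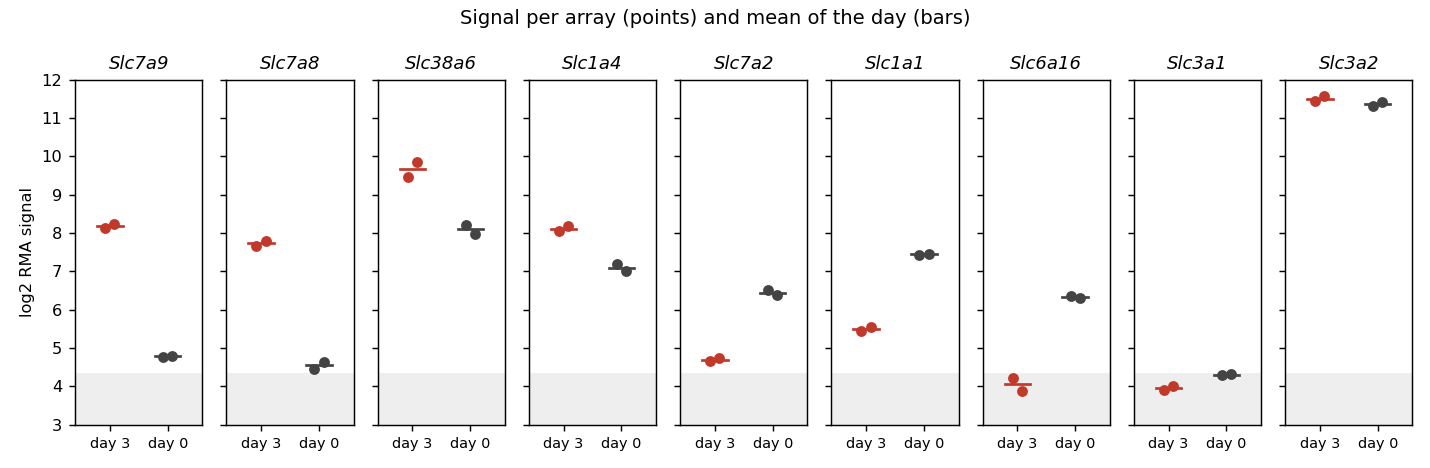
Log2 RMA signal of the 7 transporter genes called with at least a 2-fold difference and of both heavy chains, with day 3 left and day 0 right in each panel; points are the 2 arrays of a day, bars their mean, and the grey band lies below the first quartile of the arrays. Slc7a9 and Slc7a8 are high in both day 3 arrays, Slc7a2, Slc1a1 and Slc6a16 in both day 0 arrays, and Slc3a1 lies in the band on both days.

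The other light chains gave smaller differences. Slc7a7, known as y+LAT1, which moves cationic amino acids out of the cell and is mutated in lysinuric protein intolerance, rose by 0.94 ± 0.07 (adjusted p = 1.8e-06), with 10.46 and 10.54 at day 3 against 9.62 and 9.50 at day 0. Its other probe set rose by 0.49. Slc7a5, known as LAT1, the leucine exchanger of many growing cells, had 10.99 and 11.20 at day 3 and 11.09 and 11.11 at day 0. Its days overlapped, and the difference of -0.01 ± 0.07 was not called. Slc7a6, known as y+LAT2, was not called by the probe set kept (-0.09), while its other probe set rose by 0.58 (adjusted p = 9.9e-04 over all probe sets), so its direction depends on the probe set. Slc7a11, known as xCT, the cystine-glutamate exchanger, was below the first quartile on all arrays and was not called (0.13 ± 0.13). Slc7a10 (0.45) and Slc7a12 (0.43) were called higher, Slc7a12 below the quartile throughout, and both calls were lost with some arrays left out, while Slc7a13 (-0.05) and Slc7a15 (0.09) were not called. In all, 5 of 10 light chains (50%) were called, all higher. Of all genes 20.9% were called higher and 42.3% in either direction. At or below the median level lay 7 of the 10, of which 57.1% were called, against 21.9% of all such genes. Above it lay 3, of which 33.3% were called, against 62.8%.

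Cationic amino acid carriers of family 7 went in opposite directions. Slc7a3 (CAT3) had 11.79 and 11.91 at day 3, against 11.01 and 11.09 at day 0. It rose by 0.80 ± 0.06 (adjusted p = 2.6e-06). Slc7a1 (CAT1), the main arginine and lysine carrier of most cells, fell by 0.64 ± 0.12, with 10.34 and 10.70 at day 3 against 10.99 and 11.32 at day 0 (adjusted p = 0.0017). Slc7a2 (CAT2), a carrier that supplies arginine in liver and macrophages, had 4.67 and 4.73 at day 3, against 6.52 and 6.38 at day 0. Thus its day 3 signals stood near the first quartile, and it fell by 1.75 ± 0.12, about 3.36-fold (adjusted p = 8.6e-07). The other 3 probe sets of Slc7a2 lay below the first quartile on every array, where signal was not separated from background. Of these, 1 fell (by 0.60) and the differences of 0.00 and -0.23 were not called. The mean of all its probe sets fell by 0.65. Slc7a14 (0.40) was called higher from signals below the quartile and lost the call with any array but day 3 replicate 2 left out, and Slc7a4 (0.26) was not called. Slc7a4 was called higher in a fit of the genes above the median level (adjusted p = 0.041) and also when day 0 replicate 2 was left out (0.34, adjusted p = 0.027). Of these 5 carriers 2 were called higher and 2 lower (40% each), beside 20.9% and 21.4% of all genes.

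In family 1, the glutamate carriers differed among themselves. Slc1a1, known as EAAC1, which takes up glutamate, aspartate and cysteine, had 5.46 and 5.54 at day 3, against 7.43 and 7.46 at day 0. It fell by 1.95 ± 0.11, about 3.85-fold (adjusted p = 1.7e-07), and its other probe sets fell by 1.12 and 0.42, with a mean over all 3 of -1.16. Slc1a3, the glial carrier GLAST, rose by 0.92 ± 0.10 (adjusted p = 1.9e-05), with 8.01 in both arrays at day 3 against 7.15 and 7.03 at day 0. Of its 5 other probe sets 3 rose, by 0.43 to 1.30, and 2 were not called. Slc1a6, known from Purkinje cells, was called higher by 0.77 ± 0.17, with 5.62 and 5.61 at day 3 against 4.59 and 5.11 at day 0. The day 0 arrays stood apart: with each array left out in turn its difference ranged from 0.51 to 1.03, and leaving out either day 3 array ended the call (adjusted p = 0.053 and 0.050). Slc1a2 (0.27) and Slc1a7 (0.07) were not called, although 1 other probe set of Slc1a2 was called higher by 0.53 (adjusted p = 0.049 over all probe sets).

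The neutral amino acid exchangers of family 1 were not alike either. Slc1a4, known as ASCT1, a carrier of serine, alanine and cysteine, had 8.04 and 8.19 at day 3, against 7.18 and 7.02 at day 0. It rose by 1.02 ± 0.10, about 2.02-fold (adjusted p = 1.7e-05), and its other probe sets by 0.80 and 1.16. Slc1a5, known as ASCT2, the glutamine exchanger of many proliferating cells, averaged 7.04 ± 0.01 at day 3 and 7.01 ± 0.01 at day 0 (SD, n = 2 arrays each), and its difference of 0.03 ± 0.10 was not called (adjusted p = 0.84).

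The promoters of Slc1a4 (chr11:20332664-20332963 on the minus strand) and Slc1a1 (chr19:28834885-28835184 on the plus strand), from the same source and of the same length, are shown as the largest rise and fall of this family. Capitals here mark TGATGNAA on either strand, the core of the element through which C/EBP-ATF factors such as Atf4 act on genes of amino acid supply. It was found in 4.05% of all promoters and in 4 of the 40 transporter promoters, those of Slc1a4, Slc6a21, Slc7a7 and Slc7a11. Of these genes 3 were called higher and Slc7a11 was not called, beside 43.9% of the 57 transporters and 20.9% of all genes called higher. A part of this motif in the rises was not tested. A match of letters describes the sequence and is not a measured binding site. Slc1a1 had 32 CG dinucleotides and Slc1a4 had 21.
Slc1a4: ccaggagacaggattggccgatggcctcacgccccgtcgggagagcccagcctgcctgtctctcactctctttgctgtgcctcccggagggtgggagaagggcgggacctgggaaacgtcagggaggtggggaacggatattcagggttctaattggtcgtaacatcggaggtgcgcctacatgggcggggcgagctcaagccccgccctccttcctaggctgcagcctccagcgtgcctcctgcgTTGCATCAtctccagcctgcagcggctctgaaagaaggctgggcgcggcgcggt
Slc1a1: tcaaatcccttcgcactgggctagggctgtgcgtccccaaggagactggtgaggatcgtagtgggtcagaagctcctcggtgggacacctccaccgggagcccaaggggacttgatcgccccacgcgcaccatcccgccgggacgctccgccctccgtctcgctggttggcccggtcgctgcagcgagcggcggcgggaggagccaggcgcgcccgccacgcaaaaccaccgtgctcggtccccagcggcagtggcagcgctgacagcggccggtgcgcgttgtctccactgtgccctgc

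Family 38 had 6 of 8 members called higher and 0 lower, with a median difference of 0.51, beside 20.9% and 21.4% of all genes. Of the 8, 6 lay above the median level, where 62.8% of all genes were called in either direction. Slc38a2, known as SNAT2, an adaptive carrier of small neutral amino acids that includes proline and is a known target of Atf4, had 12.70 and 12.63 at day 3, against 12.02 and 11.82 at day 0. Both day 3 arrays were above both day 0 arrays, and the rise was 0.75 ± 0.07 (adjusted p = 7.4e-06). Its other probe sets differed by 0.29 and -0.07, the last was not called, and the mean over its 3 probe sets was 0.33 (adjusted p = 0.0053). Slc38a1, known as SNAT1, a glutamine carrier, rose by 0.64 ± 0.08 and by 0.75 with its other probe set. Slc38a6 is an SNAT of less settled function and had the largest rise of the family. It had 9.46 and 9.87 at day 3, against 8.20 and 7.99 at day 0, a rise of 1.57 ± 0.13, about 2.97-fold (adjusted p = 2.7e-06). Its other probe set, dim on both days (4.91 and 4.74), was not called (0.18), and from the mean of both the rise was 0.87.

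The other members of family 38 had less stable calls or were not called. Slc38a9, which senses arginine in the lysosome for mTORC1, was called higher by 0.70 ± 0.18 (adjusted p = 0.0091), with 7.80 and 7.89 at day 3 against 6.79 and 7.48 at day 0. Its day 0 arrays were the furthest apart of any duplicates among the 57 genes, its difference ranged from 0.36 to 1.05 with each array left out in turn, and leaving out either day 3 array ended the call (adjusted p = 0.087 and 0.12). Of its 7 probe sets 5 were called higher and 2 were not called. Slc38a7, a lysosomal glutamine exporter, was called higher by 0.36 ± 0.10 and lost the call without day 3 replicate 2 (adjusted p = 0.17). Slc38a3 (0.38) was called and lost its call when replicate 1 of either day was left out (adjusted p = 0.20 for day 3, 0.060 for day 0). Averaging its probe sets gave Slc38a3 a difference of 0.20, not called (adjusted p = 0.12). Slc38a10 (0.02) and Slc38a5 (-0.07) were not called, while 1 of the 6 other probe sets of Slc38a10 was called higher by 0.35 (adjusted p = 0.048 over all probe sets). The start of Slc38a6 lies in a stretch at chr12:73286598-73286897 on the plus strand with 26 CG dinucleotides and with neither AGATAA nor TGATGNAA on either strand, shown as that of the largest rise in this family.
Slc38a6: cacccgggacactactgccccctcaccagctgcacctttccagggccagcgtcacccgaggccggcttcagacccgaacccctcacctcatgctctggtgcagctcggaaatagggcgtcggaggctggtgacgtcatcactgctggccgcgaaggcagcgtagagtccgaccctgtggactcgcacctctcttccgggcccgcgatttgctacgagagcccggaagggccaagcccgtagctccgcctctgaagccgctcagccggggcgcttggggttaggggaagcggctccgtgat

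In families 36 and 43, 4 of 7 members were called higher and 1 lower, beside 20.9% and 21.4% of all genes. Slc36a4, a carrier of proline and tryptophan, had 6.39 and 6.48 at day 3, against 5.57 and 5.35 at day 0. It rose by 0.98 ± 0.12 (adjusted p = 8.9e-05). Slc36a1, known as PAT1, which carries small neutral amino acids across lysosomal and plasma membranes, had 8.14 and 8.21 at day 3, against 7.62 in both arrays at day 0, and rose by 0.56 ± 0.09. Slc36a2 (-0.11) and Slc36a3 (0.09) were not called. Both neutral amino acid uniporters of family 43 were called higher. Slc43a2, known as LAT4, had 8.39 and 8.51 at day 3, against 7.72 and 7.59 at day 0, and rose by 0.80 ± 0.09 (adjusted p = 4.9e-05). Slc43a1, known as LAT3, had a difference of 0.45 ± 0.10 and lost its call without day 3 replicate 1 (adjusted p = 0.067). Slc43a3, which carries purine nucleobases and not amino acids, had a difference of -0.48 ± 0.11, called over 4 arrays but not without day 3 replicate 1 (adjusted p = 0.075).

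Family 6 had the smallest share of calls of the 7 families, 44.4%, with 5 of 18 higher, 3 lower and 10 not called, beside 42.3% of all genes. At or below the median level lay 14 of the 18, of which 35.7% were called, against 21.9% of all such genes. Above it lay 4, of which 75% were called, against 62.8%. Slc6a16, an orphan carrier of this family, had the lowest difference of the 57 genes, with 4.23 and 3.88 at day 3, against 6.37 and 6.30 at day 0. Its day 3 signals were below the first quartile, where signal is not separated from background. It fell by 2.28 ± 0.14 on the log2 scale (adjusted p = 3.8e-07), and since the day 3 signals are near background this may understate the fall. It rests on 1 probe set. The promoter at chr7:45240503-45240802 on the plus strand is shown for this gene, and held 19 CG dinucleotides and neither motif.
Slc6a16: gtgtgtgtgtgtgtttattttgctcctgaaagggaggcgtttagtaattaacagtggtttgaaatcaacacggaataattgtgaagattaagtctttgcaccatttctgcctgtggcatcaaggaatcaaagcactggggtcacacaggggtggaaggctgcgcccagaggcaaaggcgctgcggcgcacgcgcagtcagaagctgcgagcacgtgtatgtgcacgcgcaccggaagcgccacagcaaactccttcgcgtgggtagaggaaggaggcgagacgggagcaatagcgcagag

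The remaining members of family 6 changed less. Slc6a6, the taurine carrier, had 11.27 and 11.23 at day 3, against 10.79 and 11.03 at day 0, and was called higher by 0.34 ± 0.08. Its 3 other probe sets were not called (-0.02 to 0.20), the mean over all 4 was 0.13 and not called (adjusted p = 0.25), and leaving out either day 3 array ended the call (adjusted p = 0.078 and 0.052). Slc6a8, the creatine carrier, was called lower by 0.42 ± 0.09 and by 0.51 with its other probe set. Without day 3 replicate 1 the difference of Slc6a8 was -0.35 and was not called (adjusted p = 0.067). Slc6a15, a carrier of branched-chain amino acids and proline, rose by 0.63 ± 0.09 (adjusted p = 1.7e-04), with 8.30 and 8.31 at day 3 against 7.63 and 7.72 at day 0. Slc6a14, a broad carrier of neutral and cationic amino acids, was called lower by 0.37 from signals below the quartile and lost the call with any array left out, while its other probe set fell by 1.82 (mean signals of 2.67 at day 3 and 4.49 at day 0). Of the 6 neurotransmitter carriers 2 (33.3%) were called higher, the GABA carriers Slc6a11 (0.39) and Slc6a13 (0.52), beside 20.9% of all genes. Each lost the call with some array left out. From the mean of its probe sets Slc6a11 differed by 0.10 and was not called (adjusted p = 0.53). Those of noradrenaline (Slc6a2, -0.02), dopamine (Slc6a3, -0.18) and serotonin (Slc6a4, 0.24) were not called, nor were the GABA and betaine carrier Slc6a12 (-0.02), the glycine carriers Slc6a5 (0.19) and Slc6a9 (0.12), the proline carrier Slc6a7 (-0.20) and the neutral amino acid carriers Slc6a17 (0.05), Slc6a18 (-0.05) and Slc6a19 (0.07). The uncharacterised Slc6a21 (0.40) was called higher and lost the call with some array left out.

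Probe sets of 1 gene often differed in size. The 57 genes had 116 probe sets, and 29 genes had more than 1. With each probe set tested on its own and p-values adjusted over all 34958 single-symbol probe sets, 6 of the 29 genes had all probe sets called in 1 direction (Slc1a1, Slc1a4, Slc6a8, Slc6a14, Slc7a7 and Slc38a1). In 10 genes 0 probe sets were called, in 13 some were called and others not, and in 0 were probe sets called in both directions. Slc7a9, Slc7a8 and Slc6a16 had 1 probe set each, so no other probe set could be set beside theirs.

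**Figure D3:**
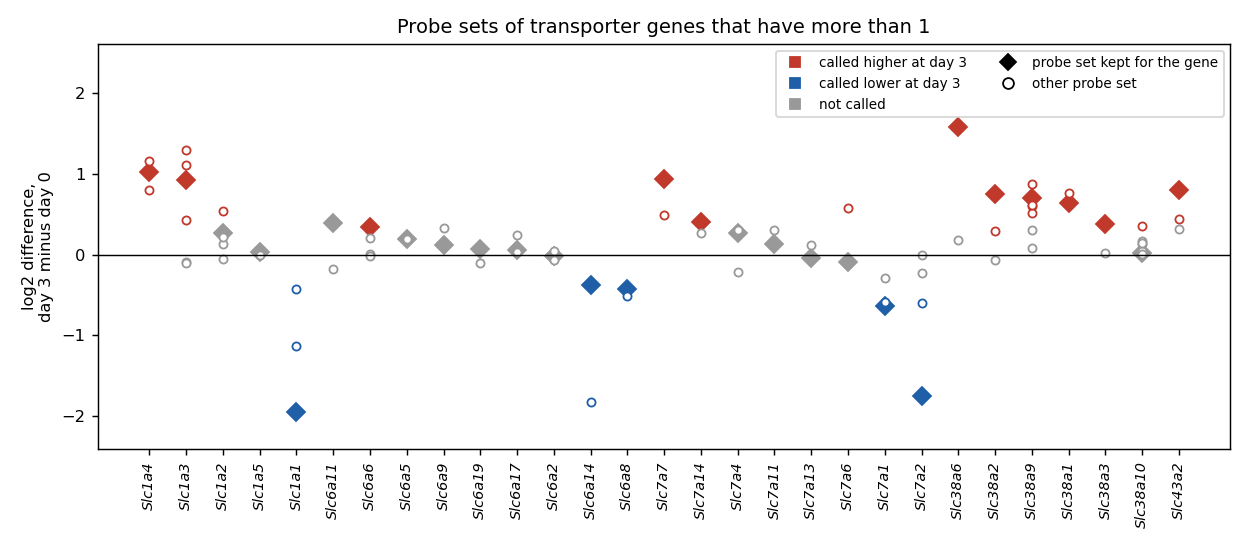
Log2 difference, day 3 minus day 0, of every probe set of the 29 transporter genes that had more than 1, with p-values adjusted over all probe sets; diamonds are the probe set kept for the gene and circles the others. Red is called higher, blue called lower and grey not called; the probe sets of Slc1a1 and Slc1a4 lie on 1 side of 0, while those of Slc7a2 and Slc38a6 reach from the value kept to near 0.

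Genes that sense and use amino acids were set beside the transporters. Of 32 genes of amino acid sensing upstream of mTORC1, the kinase complex that couples growth to nutrients, 12 were called higher and 8 lower (median 0.07), and the count lower was 5 without day 3 replicate 1 and 4 without day 3 replicate 2. Castor2, of the family of the arginine sensor Castor1, rose by 3.71 ± 0.24, with 8.60 and 8.44 at day 3 against 4.34 and 5.27 at day 0. Sesn3, a sestrin, rose by 2.76 ± 0.08, with 10.06 and 10.02 at day 3 against 7.31 and 7.24 at day 0. Rragd, encoding a Rag GTPase that brings mTORC1 to the lysosome, rose by 2.46 ± 0.09, with 12.23 and 12.20 at day 3 against 9.92 and 9.59 at day 0. These 3 were the largest differences of that list. Its largest fall was that of Sesn1, another sestrin (-0.71 ± 0.07), and Castor1 was also called lower (-0.39 ± 0.08). From the mean of each gene's probe sets the rises were 1.83 for Castor2, 2.57 for Sesn3 and 1.55 for Rragd. A further list held 32 genes, chosen as other amino acid and peptide carriers, of which 16 were called higher and 6 lower (median 0.24). It included Slc6a20a (0.14) and Slc6a20b (-0.08) of family 6, whose symbols end in a letter. It also included the serine incorporators Serinc1, Serinc2, Serinc3 and Serinc5, so not every gene of it need be a carrier. Serinc5, a serine incorporator, rose by 2.65 ± 0.16, while Slc15a1, a carrier of small peptides, fell by 2.36 ± 0.22. Slc25a12, a mitochondrial aspartate-glutamate carrier, fell by 2.33 ± 0.08, and by 1.15 from the mean of its probe sets.

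Of 16 genes of the Atf4 pathway, the transcriptional answer to amino acid shortage, 9 were called higher and 2 lower (median 0.33). The largest differences were rises of Vldlr, a lipoprotein receptor (1.95 ± 0.21), Ddit4, an inhibitor of mTORC1 (1.37 ± 0.12), and Atf3 (0.83 ± 0.12). The 2 called lower were Asns (-0.44 ± 0.08), listed also under amino acid metabolism, and Ppp1r15a (-0.30 ± 0.08). From the mean of its probe sets Vldlr rose by 1.15. Without day 3 replicate 2 the count called higher was 4. Of 29 genes of amino acid metabolism 11 were called higher and 12 lower (median -0.02). Phgdh, the entry enzyme of serine synthesis, rose by 1.31 ± 0.09. Bcat1, a branched-chain aminotransferase, fell by 1.30 ± 0.07, and Arg2, a mitochondrial arginase, fell by 1.23 ± 0.11. From the mean of probe sets Phgdh rose by 1.29, Bcat1 fell by 1.13 and Arg2 by 1.40. Of 22 cytoplasmic aminoacyl-tRNA synthetases and their scaffold proteins, which charge tRNAs with amino acids, 2 were called higher and 8 lower (median -0.10). The phenylalanine enzyme's subunits Farsa (-0.63 ± 0.09) and Farsb (-0.40 ± 0.06) and the histidine enzyme Hars (-0.30 ± 0.06) had the largest differences there, and Hars lost its call without day 3 replicate 2 (adjusted p = 0.051). Its count higher was 1 without day 3 replicate 2 or day 0 replicate 1 and 5 without day 0 replicate 2, and its count lower was 4 with either day 3 array left out. From the mean of probe sets Farsa fell by 0.37, Farsb by 0.38 and Hars by 0.20. Shares of all genes called, 20.9% higher and 21.4% lower, stand beside all of these counts. Above the median level 62.8% of all genes were called in either direction. Of the mTORC1 list 31 of 32 genes lay there (61.3% called), and of the Atf4 list 14 of 16 (64.3%). Of amino acid metabolism 26 of 29 did (80.8%), of the synthetases 22 of 22 (45.5%) and of the list of other carriers 18 of 32 (100%).

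**Figure D4:**
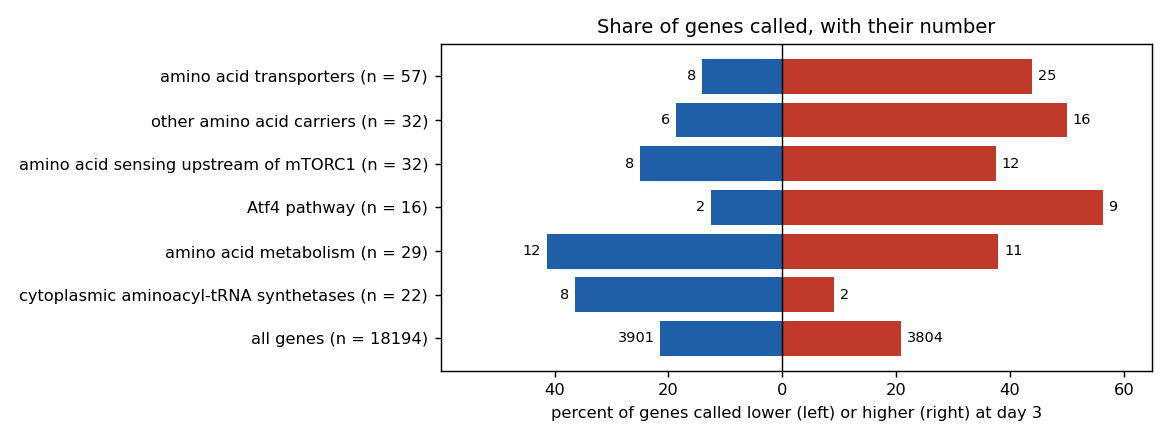
Percent of genes called higher (red, right of 0) and lower (blue, left of 0) at day 3 in the amino acid transporters, in 5 other lists and in all genes, with the number of genes at each bar. Transporters were called higher in 25 and lower in 8 of 57 genes, and aminoacyl-tRNA synthetases higher in 2 and lower in 8 of 22.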

How the data were processed

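The authors deposited log2 values for every probe set of the 4 arrays, and the submitters' processing notes name RMA and R 2.13.0 without settings. RMA makes the arrays' distributions alike and compresses differences of dim probe sets. Symbols came from the platform annotation, with a RefSeq gene table of GRCm38.p6 for chromosomes. Of 45101 probe sets, 34958 had 1 symbol, 932 several and 9211 none, and the first gave 18194 genes. A gene's probe set was that with the highest mean over the 4 arrays, which can favour a probe set very high on 1 day. Both days were compared through lmFit and eBayes (intensity trend, no covariate, two-sided) of limma 3.58.1 under R 4.3.3, with Benjamini-Hochberg adjustment over all 18194 genes. Residual degrees of freedom were 2 and prior ones 8.02. A call is an adjusted p under 0.05, and differences are day 3 minus day 0. The procedure was also run on simulated data with far fewer changed genes than were called here. Error rates at the share called here were therefore not tested. Alternatives changed the variance trend, the normalization, the filter on dim genes, the probe set, the size threshold, the replicate block and the arrays kept.

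The members and lists were chosen with earlier results of these data known. Any member could be named. Values in every array were given for members called at 2-fold or more, for the largest difference and the brightest member of each family, for both heavy chains, and for some others chosen after their values were seen, and the 3 called genes with the largest difference were named of each of the 5 other lists. Some other genes of these lists and of the marker lists were named after their values were seen. Some list genes were not analysed here.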

Additional observations from a re-analysis of the deposited data

How the results depend on the processing

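Calls of the 33 called transporters were recomputed without the intensity trend, after quantile normalization again, after median centring, with only genes above the median level, from averaged probe sets of each gene, without probe sets ending in _s_at or _x_at, with the replicate number as a block, and without each array. In every such setting that kept the gene, 17 calls held (13 higher, 4 lower), among them those of all 7 genes with at least 2-fold differences, and 16 were lost at least once. The replicate block gave 25 higher and 8 lower, as without it, and moved no count of calls by over 1.5 times; the deviations of same-numbered arrays had a correlation of -0.017 across genes, so the numbers were not taken to pair the samples. Tested against a log2 difference of 1, 3 transporters were called higher and 3 lower, and 664 and 472 of all genes. Among genes above the median level, 15 and 3 transporters were called, and medians were 0.40 over the members kept, 0.92 in Slc1, 0.13 in Slc3 (reversed from -0.11, since Slc3a1 was left out), 0.23 in Slc6, 0.13 in Slc7, 0.56 in Slc36 and 0.67 in Slc38. The median of Slc6 was 0.031 after quantile normalization, and that of Slc38 was 0.34 from the mean of probe sets. With 1 array left out, 16 to 23 transporters were called higher and 4 to 6 lower, and the median was 0.16 to 0.24 over all members, 0.18 to 0.33 in Slc7 and 0.34 to 0.59 in Slc38. The mTORC1 list then had 4 to 7 lower, the Atf4 list 4 to 9 higher, and the synthetases 1 to 5 higher and 4 to 8 lower. The synthetases had 1 higher and 4 lower without the trend, 4 higher after quantile normalization and 1 higher from the mean of probe sets. Some probe sets other than the one kept had the opposite sign. In called genes these were of Slc1a3 (-0.095 and -0.099), Slc38a2 (-0.065), Slc6a11 (-0.18) and Slc6a6 (-0.024), and were not called. In genes not called they were of Slc7a4 (-0.21), Slc1a2 (-0.050), Slc1a5 (-0.0058), Slc6a2 (0.036 and 0.047), Slc6a19 (-0.10) and Slc7a13 (0.11), also not called. The opposite probe set of Slc7a6 (0.58) was called, and the mean of its probe sets was 0.25. Unless a reason is given here, the cause of a change was not tested.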
